A study of Homo sapiens with 12 samples.

Results

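The 38 nuclear genes described here encode subunits of respiratory complexes II, III and IV and of the ATP synthase, complex V. They were found by matching a fixed list of symbols to the gene identifiers of the count tables, and all 38 were present among 60649 genes. Complex II gave 4 members, complex III 9, complex IV 10 and complex V 15, and each of the 38 passed the filter on low counts. SBC3 is an established human small cell lung cancer line. Its libraries formed 4 groups of 3, labelled control, teriflunomide, lurbinectedin and both drugs together (the combination). Teriflunomide inhibits DHODH, a pyrimidine synthesis enzyme of the inner mitochondrial membrane that hands electrons to ubiquinone. Lurbinectedin binds DNA and blocks transcription. The cells were treated as spheroids, per the series' design text, and its title names a search for synergy of teriflunomide or leflunomide with chemotherapeutics. Neither a dose nor a time of treatment is given in the sources used here.

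Complex II (succinate dehydrogenase) oxidises succinate and passes its electrons to ubiquinone. Complex III carries them from ubiquinone to cytochrome c, complex IV from cytochrome c to oxygen, and complex V makes ATP from the proton gradient that complexes III and IV help to build. All 4 subunits of complex II are nuclear, whereas the other 3 complexes also hold subunits made in the mitochondrion. The lists beside the members held 6 such mitochondrially encoded partners, 36 assembly factors, 12 alternative isoforms and further subunits, 7 genes of enzymes and carriers that feed ubiquinone or cytochrome c, and 10 nuclear regulators of respiratory genes.

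Total counts ranged from 23206414 to 33222162 per library. Correlations of log2 CPM between replicates lay between 0.9772 and 0.9951, with the lowest in the teriflunomide group. The 37 genes of the mitochondrial genome took 6.26% to 7.17% of the counts in control. Their share was 8.42%, 8.43% and 22.6% in the teriflunomide libraries. It was 16.7%, 17.1% and 13.8% under lurbinectedin, while the combination gave 14.6%, 24.9% and 13.1%. Teriflunomide replicate 3 and combination replicate 2 therefore stand apart, and results that rest on them are given with and without them. Of the markers of the line, KRT8 (196 to 444 CPM) and SYP (14.1 to 36.2 CPM) were present, while EPCAM had no count in 10 of 12 libraries and INSM1 had none in any. The blood marker PTPRC, the endothelial marker VWF and the fibroblast marker DCN were near 0, although COL1A1 reached 93.6 to 272 CPM.

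Among control libraries, the level per length (RPKM, reads scaled by exon length and library size) was highest for ATP5F1B, the catalytic beta subunit of complex V, at 447 ± 9.46 (SD, n = 3). UQCRH, the hinge protein of complex III, followed at 155 ± 6.34 RPKM. ATP5PB, the peripheral stalk subunit b, was at 93.3 ± 3.75 RPKM, COX5A at 87.9 ± 1.61 and COX8A at 87.5 ± 4.23; the last of these neighbours do not differ beyond their spread. At the other end stood UQCR11 at 9.11 ± 0.63 RPKM, ATP5PO, the stalk subunit OSCP, at 9.43 ± 0.25, and SDHA at 1.83 ± 0.0986. Within complex II the order was SDHC (52.3 ± 0.63 RPKM), SDHD (28.8 ± 1.05), SDHB (24.0 ± 0.302) and SDHA. The exon lengths in the files join all isoforms. For UQCRB the exon length was 12600 bases, its whole genomic span, so its RPKM is low for its counts. SDHA had 8765 exon bases, beside 1902 for SDHC, 2790 for SDHD and 2324 for SDHB, which lowers its RPKM likewise. Its counts were also below theirs, at 464 in control replicate 1 beside 1652 for SDHB, 2362 for SDHD and 3006 for SDHC.

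The members took 0.597%, 0.572% and 0.565% of the nuclear counts in control. Under teriflunomide the shares were 0.575%, 0.562% and 0.416%. Lurbinectedin libraries gave 0.653%, 0.616% and 0.620%, and combination libraries 0.523%, 0.503% and 0.579%. Every lurbinectedin library was above every control library, and 2 of 3 combination libraries were below every control library. ATP5F1B weighs heavily on these summed shares. It held 30582 of 150912 member counts in control replicate 1, and 37342 of 126148 in lurbinectedin replicate 1. With this gene taken out of the sums, the shares of the lurbinectedin and control libraries overlapped. The higher summed share with lurbinectedin therefore rests on ATP5F1B. The mean log2 CPM over the 38 members was 6.39 ± 0.032 in control and 6.23 ± 0.253 under teriflunomide (SD over 3 libraries). Lurbinectedin gave 6.54 ± 0.066 and the combination 6.22 ± 0.027. The wide teriflunomide spread came from replicate 3, at 5.935 against 6.404 and 6.335. In bulk RNA, a lower level per cell and fewer cells that hold the transcript cannot be told apart.

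**Figure D1:**
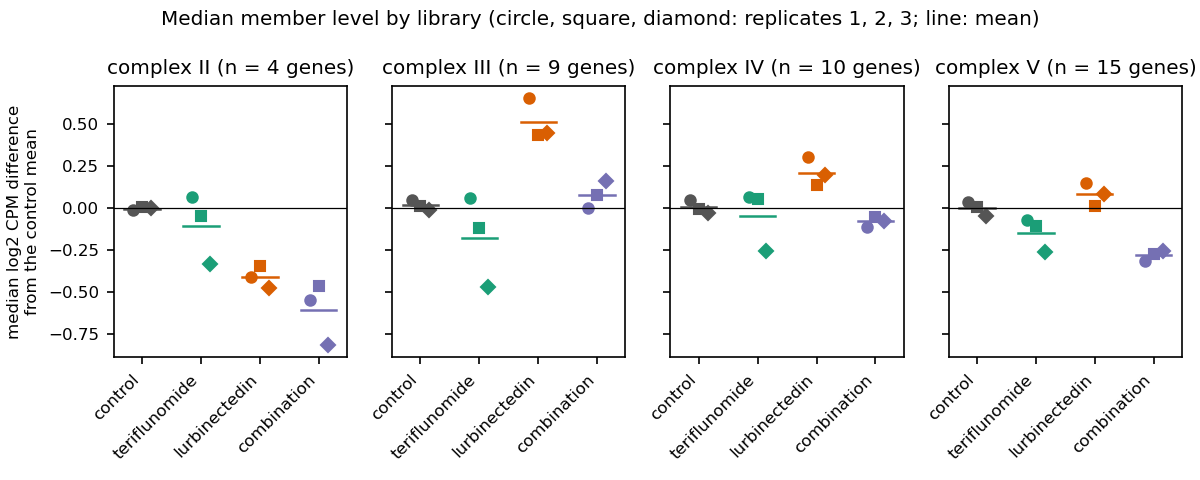
Each panel plots, for one complex, the median over its members of the log2 CPM difference from the control mean (y axis) in each library of the 4 groups (x axis); symbols are replicates 1 to 3 and lines are group means. Complex III was highest and complex II lower with lurbinectedin, the combination libraries lay below the lurbinectedin libraries for complexes III, IV and V and overlapped them for complex II, and teriflunomide replicate 3 (diamond) lay below its group.

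The first comparison asks what lurbinectedin alone did. It split the members: 12 of 38 rose and 7 fell (edgeR, adjusted p under 0.05), against a background of 36.0% of all genes tested higher and 35.7% lower. Complex III moved upwards, with 5 of 9 members higher, none lower and a median log2 fold change of 0.51. Complex II held both the largest rise and the largest fall, and complexes IV and V were mixed. The median over the 38 members was 0.20, beside 0.05 over all genes tested.

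Complex II subunits went opposite ways with lurbinectedin. SDHA, the flavoprotein that oxidises succinate (chromosome 5, 218241 to 257082, hg38), was at 15.5, 15.5 and 17.0 CPM in control and at 42.8, 39.7 and 41.1 with lurbinectedin. No library of one group reached the other, and the log2 fold change was 1.36 ± 0.123 (SE, adjusted p = 2.41e-07), a 2.57-fold rise. SDHC, a membrane anchor that binds ubiquinone (chromosome 1, 161314381 to 161363206), was at 101, 98.4 and 99.4 CPM in control and at 46.0, 46.5 and 49.2 with lurbinectedin. Again the groups were apart, and SDHC fell by 1.07 ± 0.193 on the log2 scale (adjusted p = 0.000192). SDHB, the iron-sulfur subunit (chromosome 1, 17018722 to 17054032), was at 55.4, 56.6 and 55.5 CPM in control and at 38.3, 37.8 and 38.3 with lurbinectedin. It fell by 0.55 ± 0.095 on the log2 scale (adjusted p = 0.000132), with almost no spread in either group. The second anchor, SDHD, had a log2 fold change of -0.28 ± 0.151 that did not pass the test (adjusted p = 0.115).

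The SDHA value carries a limit that its partners do not. Its 9133 counts over 12 libraries stand beside 9753 counts on 4 pseudogenes named after it, 106.8% of its own total, while the pseudogenes of SDHB, SDHC and SDHD held 0, 26 and 18 counts. Among the copies, SDHAP3 rose by 1.38 and SDHAP1 by 0.63 on the log2 scale with lurbinectedin, and SDHAP4 had a value of 0.03. Reads that fit SDHA and a copy could have been split or dropped, so its level is uncertain; the part of such reads in the rise was not tested.

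In complex III the largest rise was in UQCRFS1, the Rieske iron-sulfur protein. It was at 63.8, 62.5 and 59.8 CPM in control and at 116, 97.9 and 99.3 with lurbinectedin, with no overlap and a log2 fold change of 0.75 ± 0.123 (adjusted p = 8.55e-05). UQCRB, which helps to form the ubiquinone site, rose by 0.70 ± 0.21, UQCRC1, a core protein, by 0.64 ± 0.196, UQCRQ by 0.57 ± 0.146 and UQCR10 by 0.51 ± 0.126 on the log2 scale. UQCRH was at 208, 216 and 199 CPM in control and at 209, 196 and 190 with lurbinectedin. The groups overlapped for this hinge protein and its log2 fold change was -0.07 ± 0.092, the lowest of the complex (adjusted p = 0.535).

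The complex IV members surround a catalytic core that the mitochondrial genome encodes. COX6A1 was at 59.99, 59.71 and 59.57 CPM in control and at 105, 90.1 and 89.2 with lurbinectedin, a rise of 0.67 ± 0.182 on the log2 scale (adjusted p = 0.00469). COX7A2 rose by 0.38 ± 0.1 and COX6C by 0.35 ± 0.093. COX7C went the other way, from 99.5, 101 and 95.4 CPM to 77.96, 77.17 and 74.33, a fall of 0.37 ± 0.108 on the log2 scale (adjusted p = 0.00769). The other 6 members, among them COX4I1, COX5A and COX7B, did not pass the test; COX8A had the highest of these values at 0.55 ± 0.276 (adjusted p = 0.0875).

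Complex V showed a contrast inside its catalytic head. ATP5F1B, the beta subunit, was at 1025, 995 and 984 CPM in control and at 1809, 1521 and 1618 with lurbinectedin, a log2 fold change of 0.72 ± 0.174 (adjusted p = 0.00201). ATP5F1A, the alpha subunit that alternates with beta in the same ring, fell by 0.37 ± 0.126 on the log2 scale (adjusted p = 0.0178). That call was lost without control replicate 1, lurbinectedin replicate 2 or lurbinectedin replicate 3. ATP5F1C, the rotor subunit gamma, fell by 0.31 ± 0.091. ATP5F1E, the epsilon subunit, rose by 0.29 ± 0.096, a call lost without control replicate 3 or lurbinectedin replicate 1. Of the peripheral stalk, ATP5PB fell from 296, 303 and 280 CPM to 238, 223 and 213 (log2 fold change -0.38 ± 0.101, adjusted p = 0.00355), and ATP5PO fell by 0.38 ± 0.12 on the log2 scale. ATP5ME, the membrane subunit e, was at 41.4, 38.8 and 42.1 CPM in control and at 51.56, 49.57 and 45.03 with lurbinectedin. Its rise of 0.26 ± 0.098 on the log2 scale (adjusted p = 0.0299) lost its call in 8 of 21 alternatives, and 61.3% of its exon length overlaps MYL5 on the other strand.

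**Figure D2:**
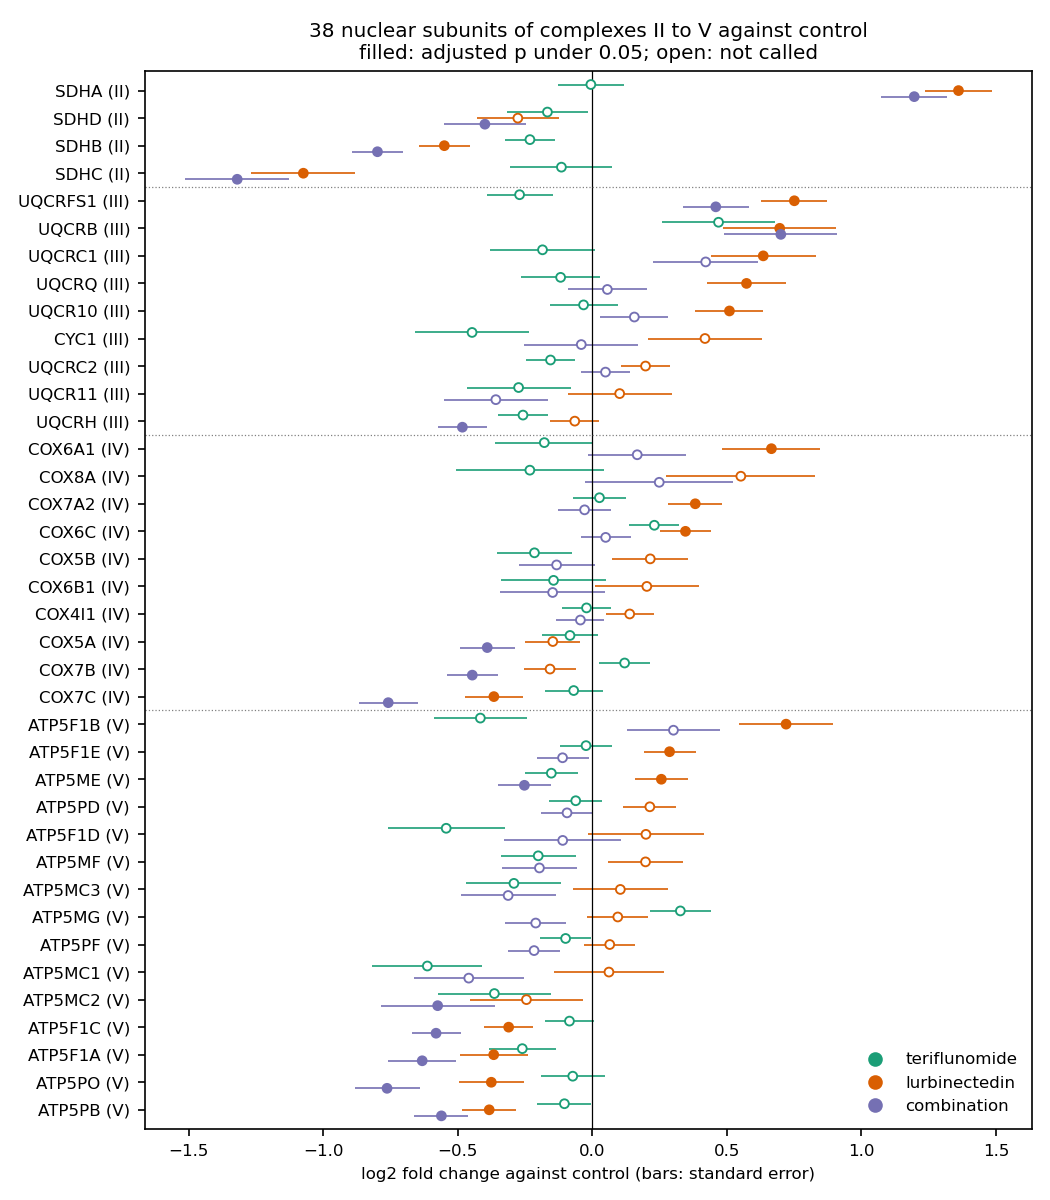
Log2 fold changes against control (x axis, bars are standard errors) are drawn for each of the 38 members (y axis, complex in brackets). The treated groups are overlaid in 1 panel in different colours, and filled points passed an adjusted p under 0.05. With lurbinectedin the values ran from -1.07 (SDHC) to 1.36 (SDHA), and no teriflunomide point is filled.

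Scaling touched the upward calls of this comparison. With library size as the only scaling, the median over all genes moved from 0.05 to -0.18, that of the members moved from 0.20 to -0.04, and 3 members instead of 12 were called higher, beside 25.9% of all genes. Relative to all genes the members stood 0.15 above under either scaling, and the mitochondrial genome held 13.8% to 17.1% of the counts with lurbinectedin beside at most 7.17% in control. With only the control and lurbinectedin libraries in the fit, 21 members were called higher and 11 lower, beside 42.1% and 41.7% of all genes. Without teriflunomide replicate 3, 19 were called higher, beside 39.5% of all genes. In 21 members every lurbinectedin library was above every control library and in 11 every one was below, against 42.4% and 40.8% of all genes.

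The genomic span of the members was measured because it was not part of their choice. It ran from 1.9 kb (ATP5ME) to 48.83 kb (SDHC), with a median of 11.22 kb, beside 24.66 kb for all genes tested. With lurbinectedin, members shorter than 5 kb had a median of 0.34 on the log2 scale, those of 5 to 15 kb one of 0.20, and those of 15 to 50 kb one of -0.15. All genes in the same bands had medians of 0.70, 0.63 and 0.19, so the members stood lower in each band. The Spearman correlation of span with log2 fold change was -0.46 over 38 members, -0.57 without SDHA, and -0.57 over all genes tested, where genes share libraries and are no replicates. Of the 13 members of 15 to 50 kb, SDHA (38.84 kb) and COX6C (20.51 kb) rose, and SDHC (48.83 kb), SDHB (35.31 kb), ATP5F1A (24.09 kb) and ATP5F1C (19.67 kb) fell.

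**Figure D3:**
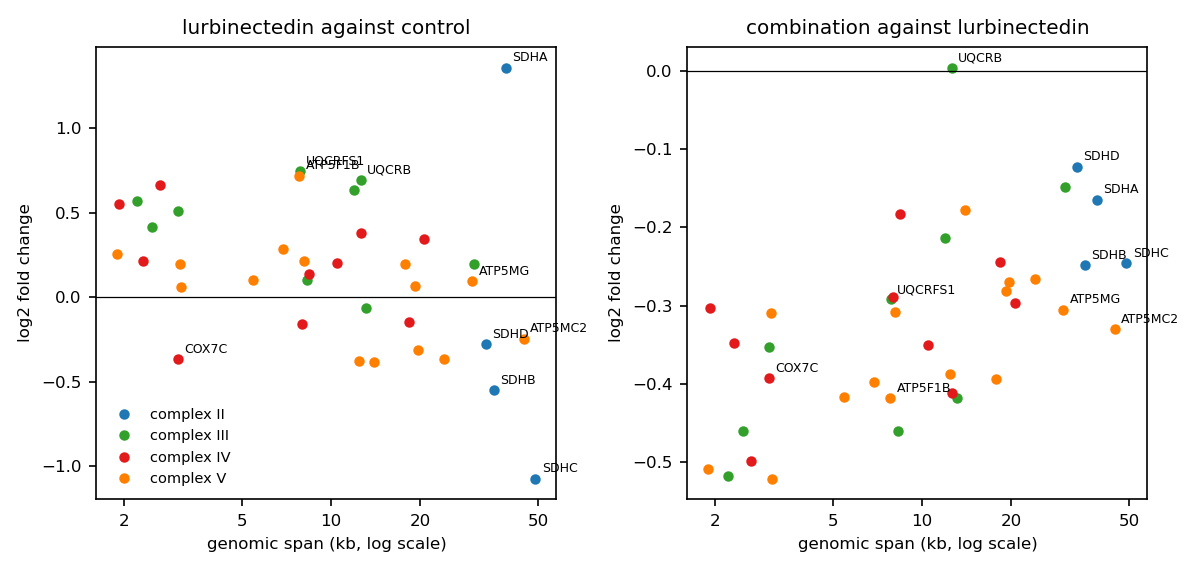
Log2 fold change (y axis) is plotted against genomic span on a log axis (kb, x axis) for the 38 members, coloured by complex, for lurbinectedin against control (left) and the combination against lurbinectedin (right). On the left, values tend to be lower at longer spans, with SDHA far above the other long members; on the right, the shortest members lie lowest and the complex II genes lie between -0.25 and -0.12.

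The second comparison asks what teriflunomide alone did. No member passed the test in edgeR (smallest adjusted p = 0.0897), in a comparison that called 6.01% of all genes, and 9 members had an unadjusted p under 0.05, beside 24.8% of all genes; DESeq2 called 3 members lower, beside 4.93% of all genes. The point estimates were below 0 in 33 of 38 members, beside 46.2% of all genes, with a median of -0.15 against 0.03. That median rested on teriflunomide replicate 3: without it, the median was -0.02, with 21 members below 0 and 17 above. Every teriflunomide library was below every control library in 11 members and above in 3, against 16.7% and 20.1% of all genes.

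A pair of membrane subunits of complex V had the smallest p-values. ATP5MC1, one of 3 genes that encode the same mature ring subunit c, was at 48.7, 46.1 and 45.4 CPM in control and at 37.40, 36.14 and 17.99 with teriflunomide. All 3 treated libraries were below control, with a log2 fold change of -0.61 ± 0.205 that did not pass (adjusted p = 0.0897). ATP5MG, subunit g, was at 55.0, 58.2 and 53.4 CPM in control and at 76.6, 71.6 and 60.6 with teriflunomide. Here all 3 were above control, with a value of 0.33 ± 0.112 (adjusted p = 0.0979). Without teriflunomide replicate 3 both passed, ATP5MG at 0.42 (adjusted p = 0.00992) and ATP5MC1 at -0.35 (adjusted p = 0.0366), when 9.36% of all genes were called. UQCRH was next, at 191, 172 and 157 CPM against 208, 216 and 199 in control, a value of -0.26 ± 0.092 (adjusted p = 0.108).

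The ATP5MC paralogs allowed a measure within each library. Their summed level was 374 ± 14.0 CPM in control and 292 ± 99.4 under teriflunomide. Lurbinectedin gave 364 ± 25.6 CPM and the combination 276 ± 22.2. ATP5MC1 made up 12.5% ± 0.08 of the sum in control and 10.4% ± 0.23 with teriflunomide, where even replicate 3, with a sum of only 177 CPM, gave 10.15%. With lurbinectedin its share was 13.4% ± 0.18, and the share of ATP5MC2 was 36.97% ± 0.9 against 42.6% ± 1.31 in control. ATP5MC2 itself, at 163, 156 and 160 CPM in control, was at 108, 94.2 and 119 with the combination, a fall of 0.57 ± 0.212 on the log2 scale (adjusted p = 0.0266) that lost its call without combination replicate 2 (adjusted p = 0.101), without combination replicate 1 and with any single control library left out. ATP5MC3 was at 178, 169 and 157 CPM in control and at 133, 129 and 144 with the combination, which did not pass (log2 fold change -0.31 ± 0.177, adjusted p = 0.131).

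**Figure D4:**
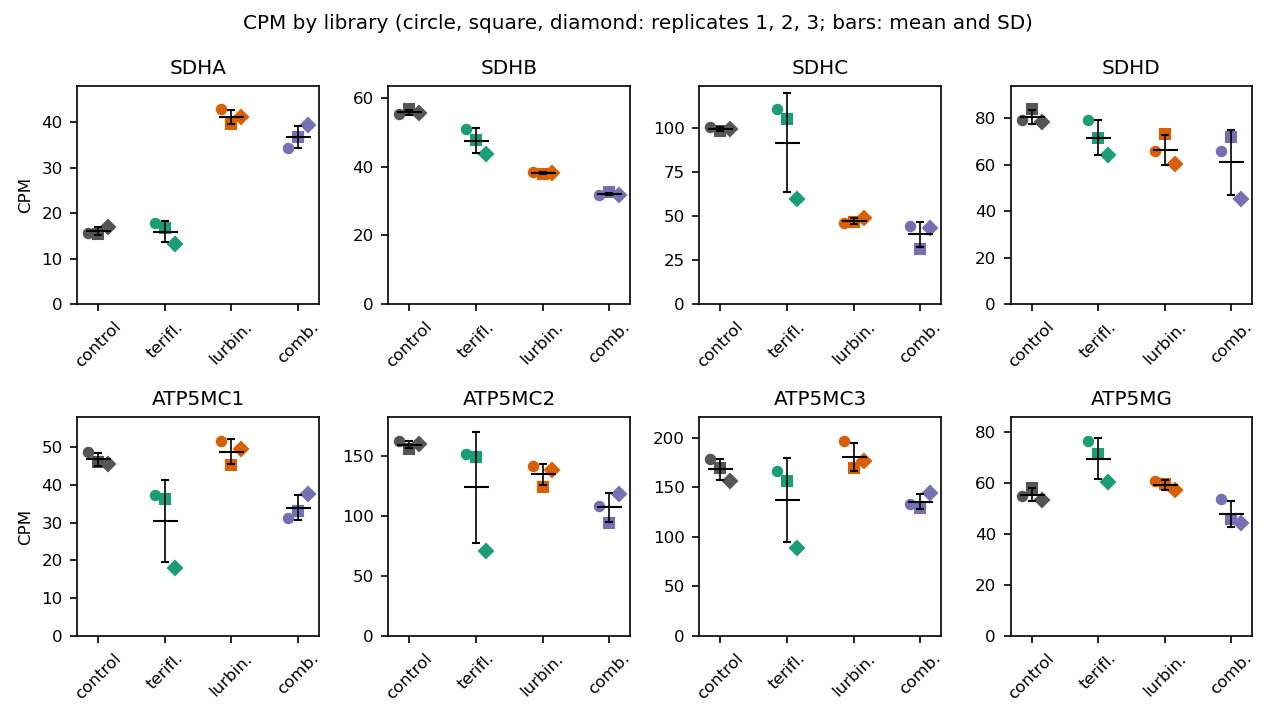
CPM by library (y axis, from 0) is shown for the 4 complex II genes, the 3 ATP5MC paralogs and ATP5MG in the 4 groups (x axis), with symbols for replicates 1 to 3 and bars for the mean and SD. SDHA is high and SDHC low in all 6 libraries that received lurbinectedin, and teriflunomide replicate 3 (diamond) is the lowest of its group in every panel.

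The third comparison asks what changed when teriflunomide was added to lurbinectedin. The members' estimates moved one way: 37 of 38 were below 0, beside 46.7% of all genes, with a median log2 fold change of -0.31 against 0.02 over all genes. Of the assembly factors 29 of 36 were also below 0 (median -0.10), and of the further subunits tested 6 of 7 (median -0.33). Of the genes that feed ubiquinone or cytochrome c 2 of 5 were below 0, of the regulators 4 of 9, and of the mitochondrially encoded partners 0 of 6. The Spearman correlation of span with this difference was 0.64 over the members and 0.35 over all genes. In 32 members every combination library was below every lurbinectedin library, and in none above, against 12.6% and 11.1% of all genes. No member passed the adjusted test in edgeR, and neither did any other gene (0% of 16683, smallest adjusted p = 0.145). An unadjusted p under 0.05 was reached by 25 members, beside 15.6% of all genes, and DESeq2 called 8 members lower, beside 0.977% of all genes. The medians of the complexes were -0.20 for complex II, -0.35 for III, -0.33 for IV and -0.33 for V.

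The calls depended on a library outside the contrast. Teriflunomide replicate 3 belongs to neither group and enters this comparison through the shared scaling and the shared estimate of spread. Without it the biological coefficient of variation over all genes went from 14.5% to 9.21%. The median over the members was then -0.30, and 27 of 38 were called lower and none higher, beside 5.96% of all genes lower and 6.47% higher. With only the 6 libraries of the contrast in the fit, 2 members were called lower, beside 0.520% of all genes. Without combination replicate 2, the library with the highest mitochondrial share, the median was -0.30 and all 38 members were below 0, and 1 was called lower, beside 0.384% of all genes. Without both libraries 30 members were called lower, beside 10.3% of all genes.

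The 11 members not called without teriflunomide replicate 3 included SDHA, SDHC and SDHD, and in complex III UQCRB, UQCRC1, UQCRC2 and UQCRFS1. UQCRB was at 218, 209 and 201 CPM with lurbinectedin and at 196, 265 and 169 with the combination, and at 140, 139 and 257 with teriflunomide alone. Its highest values in both teriflunomide groups were in the 2 libraries with the highest mitochondrial shares. UQCRB also had the lowest correlation of all members with their mean profile over the 12 libraries, r = -0.33.

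The members with the smallest p in each complex were SDHB, UQCRH, COX7A2 and ATP5ME. ATP5ME was at 51.56, 49.57 and 45.03 CPM with lurbinectedin and at 32.7, 35.8 and 34.1 with the combination, a log2 difference of -0.51 ± 0.098. UQCRH was at 209, 196 and 190 CPM and then at 148, 149 and 148, a difference of -0.42 ± 0.092. COX7A2 was at 107, 97.3 and 95.7 CPM and then at 73.9, 76.0 and 75.4, a difference of -0.41 ± 0.1. SDHB was at 38.3, 37.8 and 38.3 CPM and then at 31.9, 32.5 and 31.9, a difference of -0.25 ± 0.095. None of these groups overlapped, and the adjusted p was 0.145 for ATP5ME, 0.151 for UQCRH and COX7A2, and 0.249 for SDHB. Without teriflunomide replicate 3 it was 0.00311, 0.00335, 0.0039 and 0.0459.

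For several members that had risen with lurbinectedin, the combination stood nearer control. Picking members that were high in the lurbinectedin libraries favours a lower value beside those same libraries. Against control, UQCRB, UQCRFS1 and UQCRC1 still had log2 fold changes of 0.70, 0.46 and 0.42 with the combination, the last of them not called. COX6A1 was at 66.1, 63.6 and 71.6 CPM with the combination, each above every control library. UQCRQ was at 51.4, 55.0 and 56.8 CPM, beside control values of 54.8, 53.4 and 48.8. COX6C was at 77.7, 84.3 and 81.8 CPM against 79.2, 79.9 and 76.5 in control and 103, 102 and 94.2 with lurbinectedin. ATP5F1B was at 1176, 1225 and 1300 CPM, between its control and lurbinectedin levels. SDHA kept most of its rise, at 34.3, 36.6 and 39.3 CPM, each of them below the lowest lurbinectedin library. The difference for SDHA was -0.16 ± 0.12 (adjusted p = 0.53).

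**Figure D5:**
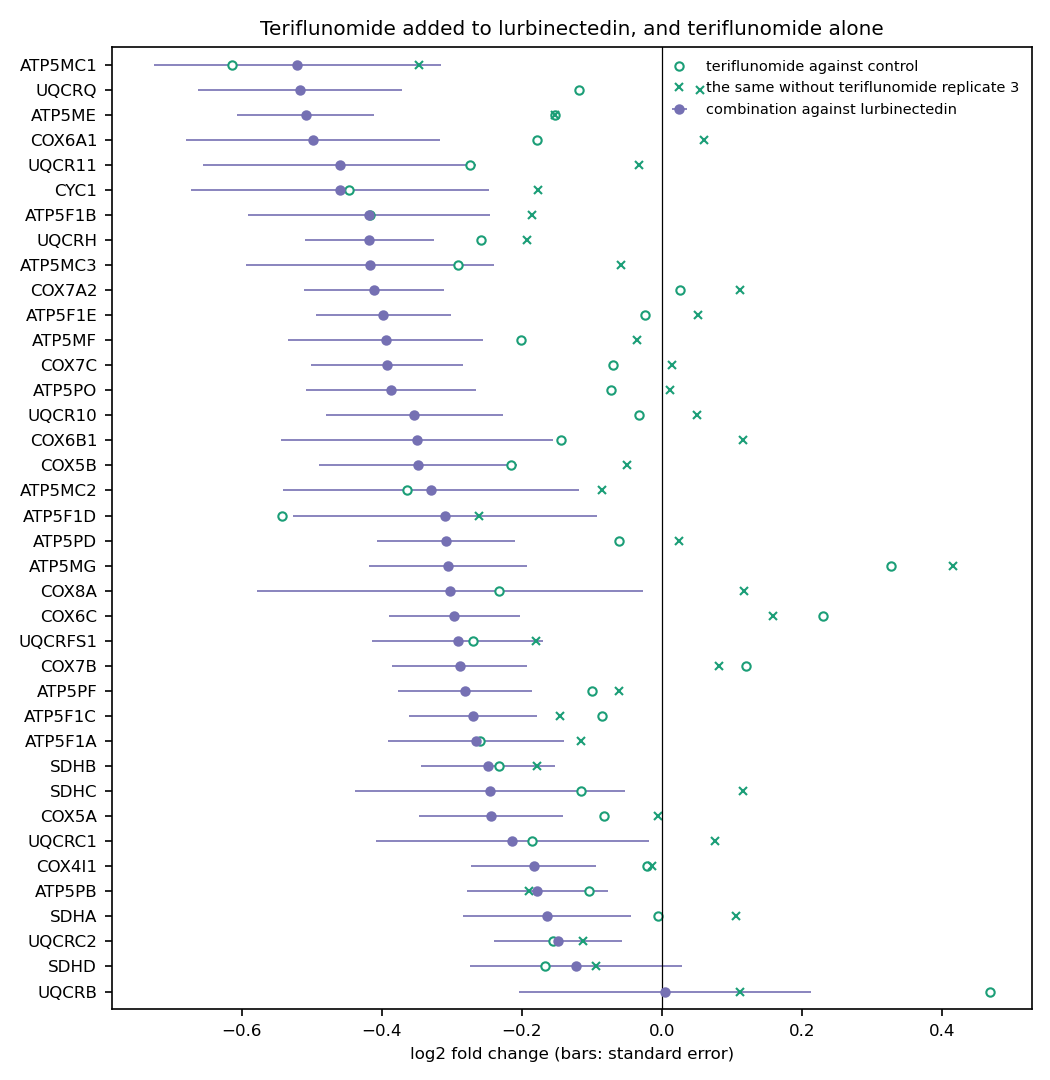
For each member (y axis) the log2 fold change (x axis) of the combination against lurbinectedin is drawn with its standard error, beside that of teriflunomide against control with and without teriflunomide replicate 3. The purple points lie below 0 for 37 of 38 members, and the crosses scatter about 0 with a median of -0.02.

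The upstream sequence of 5 members from complexes III, IV and V is shown because all 5 were among the 27 called lower without teriflunomide replicate 3, and because most of the upstream window carries no annotated exon. Sequences are from RefSeq (GRCh38.p14), 5′ to 3′ on the gene's strand, cut to the run nearest the start that is free of GENCODE 29 exons, and capitals mark matches to the ETS core. UQCR10 lies at chr22:29767119-29767368 on the plus strand, UQCR11 at chr19:1605491-1605712 on the minus strand, COX5B at chr2:97645812-97646039 on the plus strand, COX7A2 at chr6:75250324-75250548 on the minus strand and ATP5PD at chr17:75046986-75047183 on the minus strand.
UQCR10: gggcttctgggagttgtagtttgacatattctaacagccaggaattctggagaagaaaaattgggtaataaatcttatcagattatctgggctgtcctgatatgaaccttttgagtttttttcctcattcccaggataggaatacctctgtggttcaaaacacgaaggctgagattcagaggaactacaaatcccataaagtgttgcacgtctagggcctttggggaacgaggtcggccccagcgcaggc
UQCR11: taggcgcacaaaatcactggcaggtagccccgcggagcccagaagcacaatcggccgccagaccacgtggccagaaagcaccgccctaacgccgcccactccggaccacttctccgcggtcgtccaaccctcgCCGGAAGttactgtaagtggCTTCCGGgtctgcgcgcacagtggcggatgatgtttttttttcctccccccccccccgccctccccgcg
COX5B: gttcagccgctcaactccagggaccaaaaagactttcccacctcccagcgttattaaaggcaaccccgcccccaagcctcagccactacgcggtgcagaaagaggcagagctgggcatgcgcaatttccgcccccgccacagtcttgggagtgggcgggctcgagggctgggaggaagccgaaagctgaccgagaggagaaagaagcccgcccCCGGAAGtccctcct
COX7A2: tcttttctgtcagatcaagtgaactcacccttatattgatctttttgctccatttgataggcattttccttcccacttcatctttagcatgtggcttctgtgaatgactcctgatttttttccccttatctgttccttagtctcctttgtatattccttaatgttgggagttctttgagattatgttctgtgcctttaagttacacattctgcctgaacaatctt
ATP5PD: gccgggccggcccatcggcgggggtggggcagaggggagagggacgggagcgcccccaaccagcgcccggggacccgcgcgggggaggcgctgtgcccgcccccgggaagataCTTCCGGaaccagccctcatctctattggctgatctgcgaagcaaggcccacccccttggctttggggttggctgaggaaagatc
The promoters of UQCR11, COX5B and ATP5PD hold the ETS core and those of UQCR10 and COX7A2 do not. In all 5, every combination library lay below every lurbinectedin library, as in 32 of 38 members, beside 12.6% of all genes. The 5 were chosen among members called lower in this contrast, so their shared direction says nothing about the motif.

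Promoters were found in the RefSeq table for 30 of 38 members. In the 250 bases before the start, on either strand, the ETS core CCGGAAG was in 11 of 30 (36.7%), beside 8.82% of 27305 promoters in the table. The core of the nuclear respiratory factor 1 site was in 8 of 30 (26.7%), beside 5.53%, and the YY1 core AAGATGGCG in 1 of 30, beside 0.64%. No motif searched contains another. A match describes the letters only. Of members with the ETS core, COX6A1 and UQCRQ rose with lurbinectedin and SDHB fell.

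The fourth comparison sets both drugs against control. Here 13 members fell and 3 rose, beside 34.4% and 34.1% of all genes, with a median of -0.17 against 0.04. This comparison shares its control libraries with those of each single drug. In complex II, SDHA was higher by 1.196 ± 0.123 on the log2 scale (adjusted p = 1.06e-06), while SDHC fell by 1.32 ± 0.194, SDHB by 0.80 ± 0.095 and SDHD by 0.40 ± 0.151. SDHC was at 44.5, 31.5 and 43.4 CPM, SDHB at 31.9, 32.5 and 31.9 and SDHD at 65.9, 72.0 and 45.2. SDHD, at 79.2, 83.8 and 78.4 CPM in control, lost its call without combination replicate 3 (adjusted p = 0.12) and without any single control library.

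In complex III, UQCRFS1 was higher by 0.46 ± 0.123 and UQCRB by 0.70 ± 0.21 on the log2 scale, and UQCRH fell by 0.48 ± 0.092. Without combination replicate 2, UQCRB was at 0.49 (adjusted p = 0.0549). In complex IV, COX7C was at 60.4, 51.1 and 63.2 CPM and fell by 0.76 ± 0.109 on the log2 scale (adjusted p = 2.75e-05), COX7B fell by 0.45 ± 0.096 and COX5A by 0.39 ± 0.103. In complex V, 6 of 15 members fell (40%) and none rose, beside 34.4% and 34.1% of all genes. These were ATP5PO by 0.76 ± 0.121, ATP5F1A by 0.63 ± 0.126 and ATP5F1C by 0.58 ± 0.091. The others were ATP5MC2 by 0.57 ± 0.212, ATP5PB by 0.56 ± 0.101 and ATP5ME by 0.25 ± 0.098. The ATP5ME call was lost in 7 of 21 alternatives, among them those without control replicate 1 or 3 and without combination replicate 1 or 3. The 10 stalk and membrane subunits of complex V all had values below 0, from -0.76 to -0.09, beside 48.5% of all genes below 0. Of the 5 subunits of its F1 part, 4 were below 0. In 21 members every combination library was below every control library and in 7 above, against 38.5% and 38.7% of all genes.

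Lurbinectedin added to teriflunomide gave 4 members higher and 11 lower, beside 35.2% and 35.8% of all genes. SDHA (1.202 ± 0.123), UQCRFS1 (0.73 ± 0.123), ATP5F1B (0.72 ± 0.174) and UQCRC1 (0.61 ± 0.196) were the 4 that rose, the last of them not without combination replicate 3. The largest falls were in SDHC, by 1.21 ± 0.194, ATP5PO, by 0.69 ± 0.121, COX7C, by 0.69 ± 0.109, SDHB and COX7B, each by 0.57, and ATP5MG, by 0.54 ± 0.113. Teriflunomide replicate 3 entered this comparison directly, and without it 20 members were called, beside 74.0% of all genes.

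The interaction subtracts the difference made by teriflunomide alone from the one it made on top of lurbinectedin. It called no member in edgeR, where 0.258% of all genes were called and 6 members had an unadjusted p under 0.05, beside 10.3% of all genes. Its estimate was below 0 in 33 of 38 members, beside 48.0% of all genes, with a median of -0.16. The smallest p-values were those of COX6C (-0.53 ± 0.132, adjusted p = 0.16), ATP5MG (-0.63 ± 0.159, adjusted p = 0.166) and COX7A2 (-0.44 ± 0.141, adjusted p = 0.288), and DESeq2 called COX6C and ATP5MG, beside 1.53% of all genes. ATP5MG was above control in every library with teriflunomide alone and below lurbinectedin alone in every combination library, at 53.7, 45.8 and 44.4 CPM against 60.8, 59.8 and 57.2. Without teriflunomide replicate 3 the estimate was below 0 in 37 of 38 members, with a median of -0.29, and 7 members were called, beside 3.70% of all genes. These were ATP5MG (-0.72), UQCRQ (-0.57), COX6A1 (-0.55), COX7A2 (-0.52), COX6B1 (-0.46), COX6C (-0.45) and ATP5F1E (-0.44). With library size as the only scaling the median of the members was -0.02, when that of all genes moved from 0.02 to 0.16; relative to all genes the members were at -0.18 under either scaling.

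The mitochondrially encoded partners of complexes III, IV and V had fold changes above 0 against control in all 3 treated groups. With lurbinectedin 3 of 6 rose, beside 36.0% of all genes, and they were the 3 core subunits of complex IV: MT-CO1 by 1.73 ± 0.36, MT-CO2 by 1.51 ± 0.36 and MT-CO3 by 1.01 ± 0.33 on the log2 scale. MT-CYB (0.65 ± 0.39), MT-ATP6 (1.14 ± 0.50) and MT-ATP8 (0.98 ± 0.54) did not pass; without teriflunomide replicate 3, 5 of 6 were called. With the combination 5 of 6 rose, all but MT-CYB, beside 34.1% of all genes. Without combination replicate 2 only MT-CO1 and MT-CO2 of the 6 were called, beside 31.2% of all genes, and the median went from 1.51 to 0.89. With teriflunomide no partner passed, with values from 0.74 (MT-CO3) to 1.43 (MT-ATP6) and a median of 1.21. Without teriflunomide replicate 3 the median was 0.24 and again none passed; without combination replicate 2, MT-CO1 and MT-CO2 did. MT-CO1 was at 9429, 11072 and 10631 CPM in control and at 15547, 15359 and 41063 under teriflunomide. Lurbinectedin libraries had 38235, 36076 and 29078 CPM, and combination libraries 28182, 54955 and 24549. Its 2 highest libraries were teriflunomide replicate 3 and combination replicate 2. Between combination and lurbinectedin the 6 partners had a median of 0.19 and none passed. That sign rested on combination replicate 2: without it the median was -0.29, beside -0.30 for the nuclear members.

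Of the 36 assembly factors, 13 rose (36.1%) and 17 fell (47.2%) with lurbinectedin, beside 36.0% and 35.7% of all genes. COX10, which makes the haem of complex IV, fell by 1.93 ± 0.13, SDHAF3, an assembly factor of complex II, by 1.79 ± 0.15 and CMC1, a complex IV factor, by 1.73 ± 0.15 on the log2 scale. With teriflunomide 2 rose and 1 fell, in a comparison that called 6.01% of all genes. These were ATPAF1 (0.56 ± 0.10) and TMEM242 (0.52 ± 0.12), both of complex V, and SCO1 (-0.35 ± 0.10), a copper carrier for complex IV. Of 12 alternative isoforms and further subunits 7 were tested, of which 4 rose and none fell with lurbinectedin, beside the same 36.0% and 35.7%. NDUFA4, now counted with complex IV, rose by 0.84 ± 0.17, COX6B2 by 1.65 ± 0.46 and ATP5MJ by 0.46 ± 0.12. NDUFA4 was at 182, 159 and 159 CPM with lurbinectedin and at 120, 101 and 116 with the combination.

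Of 7 genes that feed ubiquinone or cytochrome c, 5 were tested, and 3 rose and 2 fell with lurbinectedin, against that background. GPD2, the glycerol-3-phosphate dehydrogenase, fell by 3.03 ± 0.21 with lurbinectedin and ETFDH, which takes electrons from fatty acid oxidation, by 1.44 ± 0.15, while PRODH, proline dehydrogenase, rose by 1.42 ± 0.22. DHODH, the target of teriflunomide, was at 18.3, 17.8 and 19.2 CPM in control and at 13.1, 13.0 and 11.9 with teriflunomide, a fall of 0.54 ± 0.12 on the log2 scale (adjusted p = 0.0186). It rose by 0.43 ± 0.12 with lurbinectedin (adjusted p = 0.00435) and was at 16.5, 20.5 and 19.7 CPM with the combination. Of 10 regulators 9 were tested: 3 rose (33.3%) and 4 fell (44.4%) with lurbinectedin, beside 36.0% and 35.7% of all genes. PPARGC1B, a coactivator of respiratory genes, fell by 3.795 ± 0.25, NRF1, the nuclear respiratory factor, by 1.48 ± 0.15 and GABPB2, a subunit of an ETS family factor, by 1.199 ± 0.15.

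The genes outside all lists whose log2 CPM followed the members' mean profile most closely over the 12 libraries were PPT1 (Pearson r = 0.979), EMC1 (0.974), MRPL15 (0.967), MRPL11 (0.961) and PARK7 (0.939). The points share libraries and scaling, so these are descriptions. Between combination and lurbinectedin their log2 differences were -0.39, -0.32, -0.38, -0.37 and -0.36, inside the range of the members. The genes were chosen for their likeness over these same libraries, so this likeness was built into the choice.

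Some counts may mix genes because strand use is not stated. ATP5PF shares 34.4% of its exon length with GABPA on the other strand, and ATP5PD shares 10.5% with KCTD2. UQCRH has a near-identical copy, UQCRHL, which was among the genes tested.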

How the data were processed

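RNA-seq libraries of SBC3 cells were deposited by the authors as raw read counts per gene, with 1 table per library and the column layout of featureCounts. The submitters' processing notes name fastp 0.23.2, STAR 2.7.9, Subread, featureCounts and the build hg38. The annotation release, the use of strand and the treatment of multi-mapping reads are not given in the sources used here. Symbols matched 60463 of 60649 gene identifiers (99.7%).

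Counts were tested with edgeR 4.0.16 (R 4.3.3). Genes were kept by filterByExpr, libraries were scaled by TMM, and the robust quasi-likelihood test was run on a fit of the 12 libraries by group, with Benjamini-Hochberg adjustment over 16683 genes. The script was tested on simulated data. CPM uses the effective library size, and RPKM also the exon length in the files. Spread between libraries includes depth, and p-values measure the spread between these samples only, since the labels name no separate cultures. The alternatives were other scalings, filters, DESeq2 1.42.0, a replicate block, only the groups compared, an adjusted p under 0.01 and each library left out. The fit without teriflunomide replicate 3 and combination replicate 2 was added after seeing the data.

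The members and the lists were chosen with earlier results of these data known. Values are given library by library for the members of each complex with the highest and the lowest fold change with lurbinectedin and with the smallest p between combination and lurbinectedin, for the 3 members with the smallest p in the interaction and with teriflunomide, and for the ATP5MC paralogs. From other lists, the mitochondrially encoded partners, DHODH and at most 3 genes with the smallest adjusted p with lurbinectedin are named. Other genes were singled out after their values were seen.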

Additional observations from a re-analysis of the deposited data

Results flagged for a closer look

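COX6C, COX7B and ATP5MG stood out because every teriflunomide library lay above the control mean while every combination library lay below the lurbinectedin mean. For COX6C the differences ran from 0.14 to 0.36 with teriflunomide alone and from -0.36 to -0.24 with lurbinectedin present, and the interaction was -0.53 on the log2 scale (edgeR, adjusted p = 0.1599). For COX7B they ran from 0.04 to 0.19 and from -0.4 to -0.19, with an interaction of -0.41 (adjusted p = 0.3078). For ATP5MG they ran from 0.13 to 0.47 and from -0.42 to -0.14, with an interaction of -0.63 (adjusted p = 0.1656). The interaction test did not call any of them with all 12 libraries. Without teriflunomide replicate 3 it called COX6C and ATP5MG, and not COX7B (adjusted p = 0.0902).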

How the results depend on the processing

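Of 50 calls of single members against 21 alternatives each, none changed direction, 31 kept their call in all 21 and 19 lost it at least once (the cause was not tested). The 21 leave out the threshold of 0.01. One of the 31, ATP5PO with lurbinectedin, was not called at that threshold (edgeR, adjusted p = 0.0121). With teriflunomide, members called higher were 1 without the expression filter and 0 to 1 with a library left out. Members called lower were 4 without the filter, 3 with DESeq2, beside 4.93% of all genes, and 0 to 1 with a library left out. With lurbinectedin, members called higher were 3 with library size as the only scaling, beside 25.9% of all genes. They were 21 with only the groups compared, beside 42.1%, and 10 to 19 with a library left out. Members called lower were 11 with only the groups compared, beside 41.7%, and 6 to 11 with libraries left out. For the combination against control, members called higher were 6 with only the groups compared and 2 to 7 with libraries left out. For the combination against lurbinectedin, members called lower were 4 without the filter, and 2 with only the groups compared, beside 0.520% of all genes. They were 8 with DESeq2, beside 0.977%, and 0 to 30 with libraries left out, the 30 beside 10.3%. For the combination against teriflunomide, members called higher were 7 without the filter and 3 to 8 with a library left out, the 8 without teriflunomide replicate 1, and members called lower were 8 to 17. For the interaction, the count was 2 with DESeq2, beside 1.53% of all genes, and 0 to 12 with libraries left out. The highest of most ranges came without teriflunomide replicate 3, alone or with combination replicate 2. The share of all genes called moved with the setting too. A count without such a share beside it says nothing particular to the members.

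The labels do not state whether replicate numbers pair the samples. Deviations of same-numbered libraries from their group means correlated from -0.402 to 0.144, and those of differently numbered ones from -0.206 to 0.363. With 3 libraries a group, such correlations cannot settle whether the samples were paired. With the replicate block, 0 members were called with teriflunomide, 11 higher and 7 lower with lurbinectedin, 3 higher and 12 lower for the combination against control, 0 against lurbinectedin, 4 higher and 10 lower against teriflunomide, and 0 in the interaction. No share of all genes stands beside these counts, so they say nothing particular to the members. ATP5ME lost its calls against control under the block, with either lurbinectedin or the combination. With 3 libraries a group, differences near the standard errors of about 0.1 to 0.2 could not be called.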
